A study of Mus musculus with 2 samples.

Results

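The genes described here are 10 secreted TGF-beta superfamily ligands and antagonists: the ligand genes Mstn, Inhba, Tgfb1, Tgfb2 and Tgfb3, and the genes Fst, Fstl1, Fstl3, Nog and Grem1 for antagonists and follistatin-like proteins. They were chosen by name, and each was given the GATA4 peaks whose centre lay in its gene span or within 50 kb of it. By this rule 17 of the 17539 deposited peaks were assigned, to 6 of the 10 genes, out of 21887 protein coding genes on the chromosomes that held peaks. The peaks come from chromatin immunoprecipitation sequencing (ChIP-seq) of GATA4, a zinc finger transcription factor that binds GATA sequences, in cultured mouse myoblasts, the proliferating precursors of skeletal muscle. There was 1 GATA4 ChIP library, precipitated with 3 antibodies together (C-20, H-112 and eBioevan), and 1 control IgG ChIP library. Both were made from satellite cell-derived myoblasts of STOCK Myf5tm1Pas/J, a stock with a targeted Myf5 allele, kept in Ham's/F10 growth medium with 20% fetal serum and 20 ng/ml basic fibroblast growth factor on collagen. The labels do not state how many animals or cultures each library came from. With 1 GATA4 library and 1 IgG library there was no replicate and no error between libraries, and nothing was tested. A peak list holds no expression values, so the myoblast label could not be checked by marker expression. The windows of the myoblast loci Myod1, Myf5, Pax7 and Des held 6, 3, 2 and 2 peaks. Since 56.8% of all protein coding genes had a peak in such a window, these peaks do not check the label either.

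Ligands of this family signal through pairs of serine/threonine kinase receptors that phosphorylate SMAD proteins. In skeletal muscle myostatin and activins limit muscle growth, TGF-beta proteins hold back myoblast differentiation and drive fibrosis, and BMPs act on a separate SMAD branch. Secreted antagonists bind the ligands outside the cell: follistatin and FSTL3 bind activins and myostatin, while noggin and gremlin bind BMPs. FSTL1 is a secreted glycoprotein related to follistatin in sequence.

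The sequences nearest to these data are the promoters that lie under the assigned peaks. No assigned peak overlapped a promoter of the 7 members found in the RefSeq promoter table of GRCm38.p6 (Mstn, Inhba, Tgfb1, Tgfb2, Fstl1, Fstl3 and Grem1), a count of 0 of 7, and 6.1% of all 32851 promoters of the table (here with the 50 bases after the start) overlapped a peak. For Inhba, Tgfb1, Fstl3 and Grem1 this was fixed by their lack of any peak within 50 kb. Fst, Nog and Tgfb3, which had peaks, are missing from the table, so the count bears on Mstn, Tgfb2 and Fstl1 alone. The listed starts of Tgfb2 and Inhba lie inside the gene span, not at its end. Promoters of other genes were overlapped by 3 of the 17 peaks, or 17.6%, against 8.77% of all 17539 peaks. The genes were the lncRNA genes Gm35546, under the highest-scoring Tgfb2 peak, and Gm41452, under the fourth Fstl1 peak, and the start shared by Rrp15 and the lncRNA gene A430105J06Rik, under the fourth Tgfb2 peak. The Gm35546, Gm41452 and Rrp15 sequences are shown with that of Mstn, which lay outside any peak. Each line gives the 250 bases before the listed start, 5′ to 3′ on the gene's strand, and capitals mark the GATA factor site, searched on both strands as GATA preceded by A or T and followed by A or G.
Gm35546: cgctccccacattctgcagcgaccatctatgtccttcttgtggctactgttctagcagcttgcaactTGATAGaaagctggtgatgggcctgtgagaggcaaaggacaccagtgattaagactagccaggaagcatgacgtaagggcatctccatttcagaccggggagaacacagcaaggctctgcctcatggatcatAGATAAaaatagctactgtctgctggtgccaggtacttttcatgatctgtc
Gm41452: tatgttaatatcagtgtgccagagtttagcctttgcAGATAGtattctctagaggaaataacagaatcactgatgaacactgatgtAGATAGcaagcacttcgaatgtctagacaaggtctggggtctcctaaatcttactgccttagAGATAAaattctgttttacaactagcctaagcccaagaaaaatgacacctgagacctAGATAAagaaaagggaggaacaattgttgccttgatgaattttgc
Rrp15: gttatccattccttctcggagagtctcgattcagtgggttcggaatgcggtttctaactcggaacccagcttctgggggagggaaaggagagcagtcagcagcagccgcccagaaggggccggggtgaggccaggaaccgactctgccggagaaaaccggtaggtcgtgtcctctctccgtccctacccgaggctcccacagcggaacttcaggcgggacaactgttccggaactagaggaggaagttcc
Mstn: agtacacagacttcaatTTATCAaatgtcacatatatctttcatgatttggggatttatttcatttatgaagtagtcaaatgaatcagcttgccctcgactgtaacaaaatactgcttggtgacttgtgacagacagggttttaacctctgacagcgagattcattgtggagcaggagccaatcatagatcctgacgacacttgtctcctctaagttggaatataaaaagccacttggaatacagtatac

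The Gm35546 sequence lies at chr1:186587072-186587321 on the plus strand, wholly inside its peak, and holds 2 GATA sites. The Gm41452 sequence lies at chr16:37845845-37846094 on the minus strand. It holds 4 GATA sites, and 196 of its 250 bases and 3 of the 4 sites lay inside the peak. The Rrp15 sequence, at chr1:186749359-186749608 on the minus strand, lay wholly inside its peak and held none of these letters. The 2 overlapping A430105J06Rik promoters, not shown because they run into the transcribed side of Rrp15, lay wholly inside the same peak and share 1 GATA site, at chr1:186749332-186749337. The Mstn sequence, at chr1:53061390-53061639 on the plus strand, holds 1 GATA site, on the opposite strand, and was the only one of the 7 member promoters to hold any. Over all 32851 promoters of the table, 26.5% held a GATA site in these 250 bases, and of the 1392 that lay wholly inside a GATA4 peak 22.0% did. The E-box of MyoD and its relatives (CANNTG, both strands) matched in 3 of the 7 member promoters, against 66.2% of all promoters. The SMAD box (CAGAC, both strands) matched in 4 of 7, against 42.2%, and the AP-1 site (TGACTCA and its reverse complement, TGAGTCA) and the TEAD site (CATTCC) in none, against 4.46% and 12.6%. A match is a description of the letters, and genome sequence under the other 14 peaks was not used here.

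GATA4 peaks were found at 6 of the 10 genes, close to the 56.8% of all protein coding genes that had a peak under the same rule. Among the 16516 genes between the shortest and the longest member in length the share was 58.6%. Peaks were unevenly divided among the members. Fst had 5, Fstl1 and Tgfb2 had 4 each, Nog had 2, and Mstn and Tgfb3 had 1 each. Inhba, Tgfb1, Fstl3 and Grem1 had none. In both roles 3 of 5 genes had a peak, with 6 peaks at ligand genes and 11 at genes of antagonists and follistatin-like proteins. Of the 17 peaks 2 had their centre inside a member, so 2 of the 10 members had a peak inside the span, against 21.0% of all protein coding genes. A further 6 lay within 10 kb outside the gene and 9 between 10 and 50 kb away. Transcribed strands and promoters are known here only for the members in the promoter table, so sides are given by coordinate. Exons, introns and untranslated regions were not used here.

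**Figure D1:**
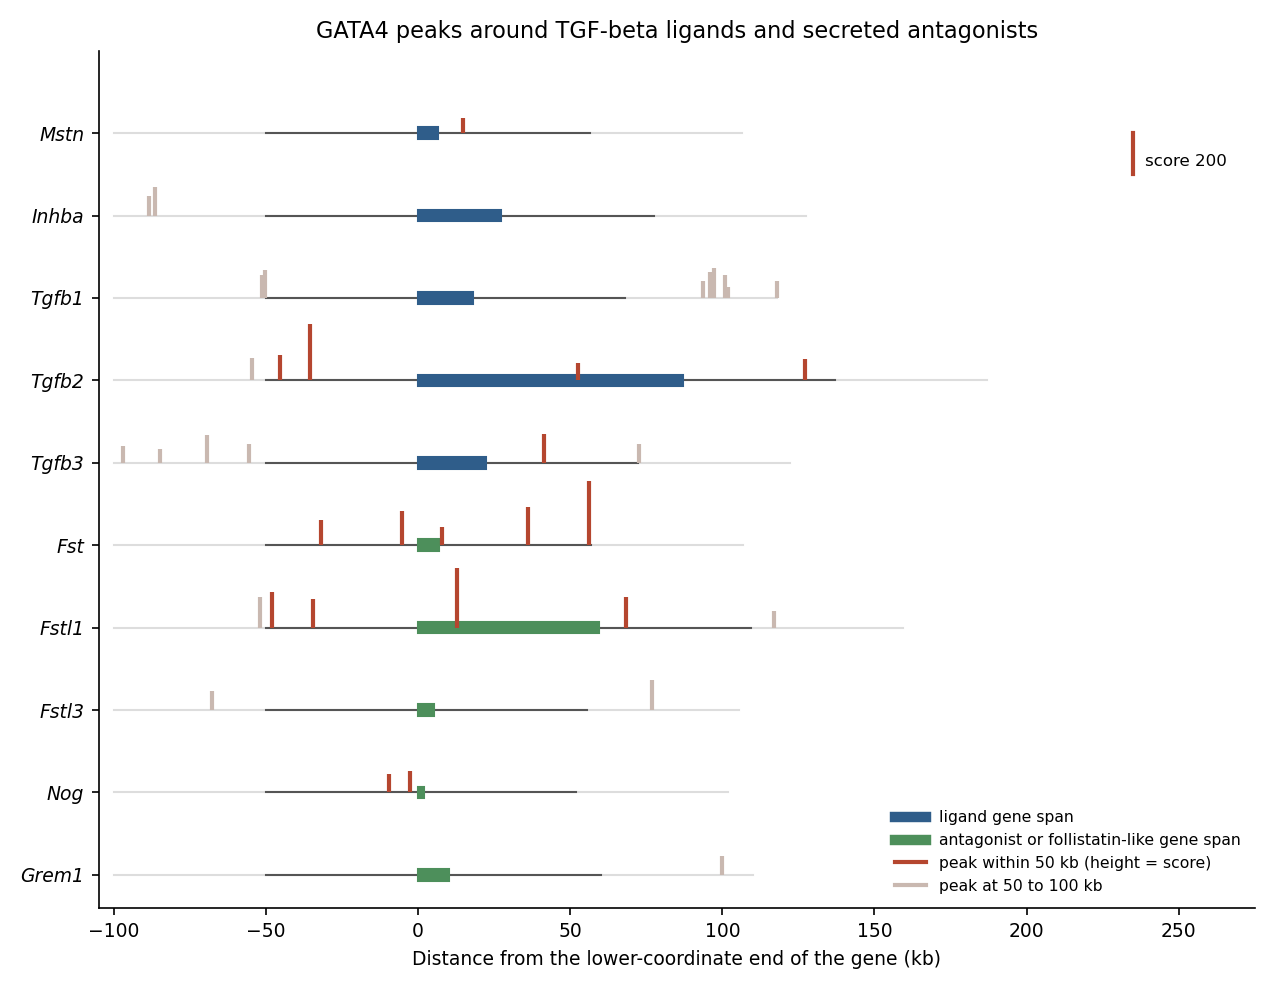
Peaks around each of the 10 genes, with distance in kb from the lower-coordinate end of the gene on the horizontal axis and each peak as a vertical line whose height is its MACS score. Red peaks have their centre within 50 kb of the gene span (dark line), pale ones lie between 50 and 100 kb (grey line). Fst shows 5 red peaks on both sides of a short gene, Tgfb2 and Fstl1 show 4 each, and Inhba, Tgfb1, Fstl3 and Grem1 show none.

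The authors' value for each peak is its MACS score, which had a median of 138 over the 17 peaks (71.6 to 311) and of 99.3 over all peaks (50.14 to 861.36). Of the 17 peaks, 13 scored above the median of the list, and 3, or 17.6%, were among its 1753 highest. The scores of all peaks fell on steps, which allowed the number of tags (mapped reads as the caller counted them) to be read off. In 99.7% of peaks the score equalled, within 0.02, −10 log10 of the Poisson chance of at least a whole number of tags, with 1 background rate for the genome of 0.508 tags per 600 bp and no peak counted as narrower than 600 bp. All 17 member peaks met this. The smallest of the common scores, 71.57, then stood for 8 tags, and with any other starting number the common scores missed by up to 9.04 or more. If the caller's chance left out the observed number itself, each tag number would be 1 lower. The median over all peaks was 11 tags, with quartiles of 9 and 14 and a range of 7 to 69. The member peaks had a median of 13 tags and ranged from 8 to 35.

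These low tag numbers limit how far peaks can be ranked. The peak with the most tags, the third Fstl1 peak, had a 95% exact Poisson interval wholly above those of 10 of the other 16 member peaks and overlapping those of 6. Width was not taken into account there, and at 2605 bp this peak was the widest of the 17. Per kb it had 13.4 tags, in a range of 11.2 to 51.5 over the 17 peaks. The intervals of 12 of the 17 peaks held the median of all peaks. Such intervals cover counting error only, and peaks entered the list because they were high. Reads of the IgG library were not analysed here, so no measured background stands beside the peaks. The score also depends on width: 4 member peaks with 13 tags were 330 to 1160 bp wide and scored 138 down to 103.

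**Figure D2:**
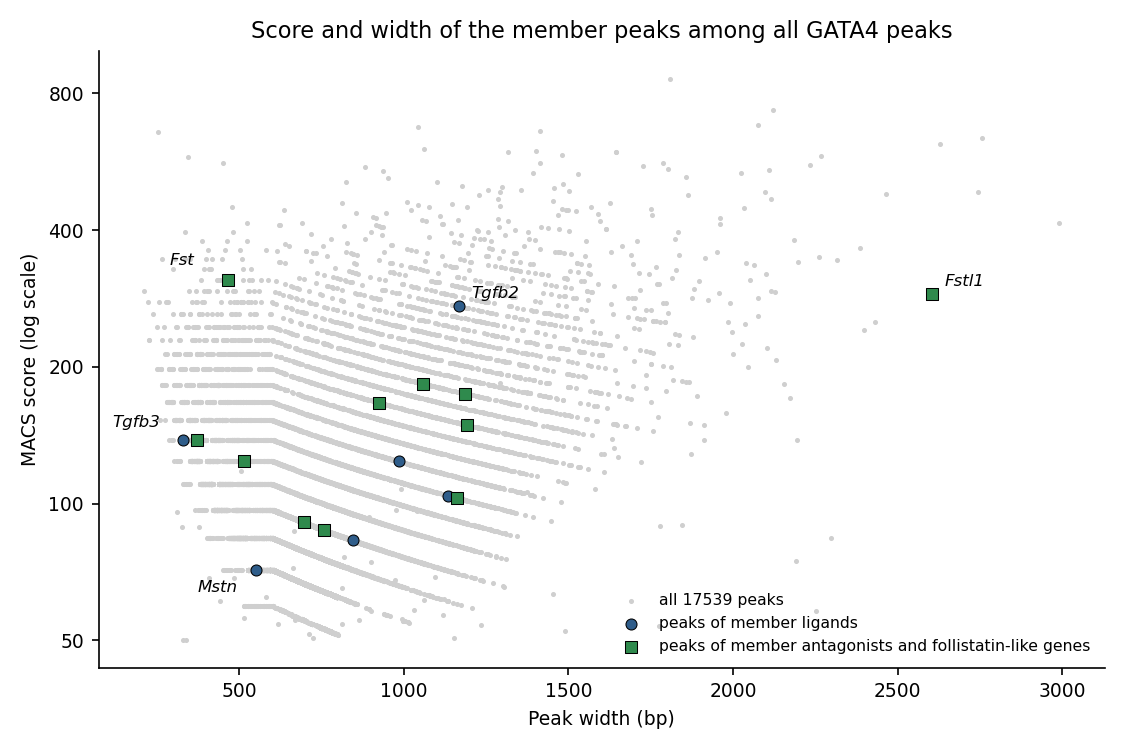
MACS score (log scale) against width in bp for all 17539 peaks (grey), with the peaks of member ligands as circles and those of member antagonists and follistatin-like genes as squares. Scores fall on steps that are flat up to 600 bp and descend with width. The third Fstl1 peak, 2605 bp wide, stands far to the right, and the fifth Fst peak has a score of 311 at only 466 bp.

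Mstn, the gene of myostatin, which restrains muscle growth, lies at chromosome 1, 53061640 to 53068079 (6440 bp, plus strand). Its single peak (53076112 to 53076662, 551 bp) was centred 14.7 kb downstream of the listed start and 8.31 kb beyond the higher-coordinate end of the gene. It scored 71.6, which ranks 14056 of 17539, and rested on 8 tags (95% Poisson interval 3.45 to 15.8), against 11 in the median peak. This was the lowest score of the 17. Exactly the same score was held by 555 peaks of the list. No other protein coding gene lay in the Mstn window, and the next one to the peak was 82.2 kb away. Of all protein coding genes, 56.8% had at least 1 peak, and 52.0% had one scoring as high as this.

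Tgfb2, which encodes 1 of the 3 TGF-beta proteins, had 4 peaks. It spans chromosome 1, 186622787 to 186709697 (86911 bp, minus strand), the longest of the 10 genes, and 10.4% of protein coding genes had 4 or more peaks. The highest, from 186586732 to 186587898, was centred 35.5 kb beyond the lower-coordinate end, which on the minus strand is the far end of the gene. It scored 272 on 26 tags (17.0 to 38.1), against 0.987 tags given by the background rate, and ranked 550. This is the peak that covers the Gm35546 promoter shown above, whose lncRNA starts on the opposite strand and runs towards Tgfb2. A second peak 9.91 kb farther out (186576917 to 186577900) scored 124 on 14 tags. The peak inside the gene (186674757 to 186675601), 30.8 kb downstream of the listed start, scored 83.0 on 10 tags (4.80 to 18.4), below the median of the list. That start lies inside the gene span, and the peak was 34.5 kb from the higher-coordinate end of the span. The last (186748880 to 186750014) scored 104 on 13 tags and lay 39.8 kb beyond the start side. Its centre was 0.089 kb from an end of Rrp15, a gene of ribosome biogenesis, and it covers the Rrp15 promoter, so its place in the Tgfb2 window rests on distance alone.

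Tgfb3, at chromosome 12, 86056743 to 86079041, had 1 peak within 50 kb (86097730 to 86098059). It was 18.9 kb from the higher-coordinate end, inside the neighbouring gene Ift43, which encodes a protein of ciliary transport. At 330 bp it was the narrowest of the 17 peaks, and its score of 138 rested on 13 tags (6.92 to 22.2). That score was shared by 428 peaks, and these were 288 to 598 bp wide. A further peak inside Ift43 (score 93.4) was centred 50.38 kb away, just outside the window.

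Tgfb1 and Inhba, which encodes the activin A subunit, had no peak in their windows. The nearest to Tgfb1 (chromosome 7, 25687002 to 25705077) was centred 50.31 kb away inside Bckdha and scored 136 on 13 tags, so this absence turns on the edge of the window. Another 5 peaks with scores of 53.2 to 147 lay 75.7 to 83.9 kb from Tgfb1 at Axl, the gene of a receptor tyrosine kinase. The Tgfb1 window held 6 other protein coding genes. Inhba (chromosome 13, 16004256 to 16031609) has no other protein coding gene in its window, and the nearest such genes are 274 and 826 kb away. Its nearest peaks, 86.4 and 88.5 kb away on the lower-coordinate side, scored 138 and 97.0 and overlapped the transcribed pseudogene B230303A05Rik.

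Fst, the gene of follistatin, the antagonist of myostatin and activins, had the most peaks of the 10 genes. It is only 6728 bp long (chromosome 13, 114452262 to 114458989), and its 107 kb window held 5 peaks, or 46.8 per Mb, against 8.52 per Mb over the annotated length of chromosome 13. Of all protein coding genes, 5.75% had 5 or more. On the lower-coordinate side a peak 31.8 kb away (114420178 to 114420691) scored 124 on 12 tags (6.20 to 21.0), and one 5.21 kb away (114446594 to 114447518) scored 167 on 17 tags (9.90 to 27.2). On the higher-coordinate side a peak 1.20 kb from the gene (114459809 to 114460565) scored 87.5 on 10 tags (4.80 to 18.4) and overlapped the lncRNA gene Gm41074. It was the closest to Fst and the weakest of its 5 peaks. Farther out, a peak 29.4 kb away (114487899 to 114488956) scored 184 on 19 tags (11.4 to 29.7). The fifth, 49.36 kb away (114508117 to 114508582), scored 311, the highest of the 17 and rank 301 of the list, on 24 tags (15.4 to 35.7) in 466 bp. It had 51.5 tags per kb, more than any other member peak, and lay just inside the window. The handling of duplicate reads is not known from the sources used here. Neighbouring Fst peaks were 13.1 to 28.2 kb apart. Fst was the nearest protein coding gene to all 5, with Ndufs4 almost as near to the first, at 32.3 kb.

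**Figure D3:**
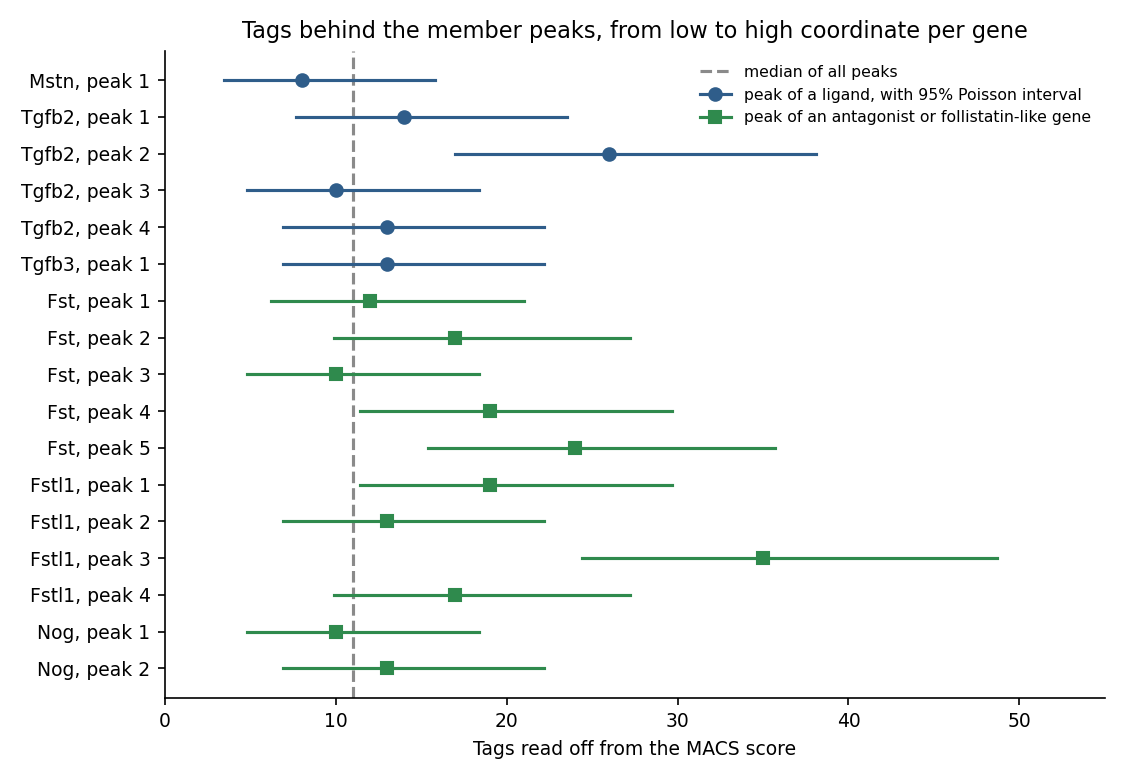
Tags read off from the score for each of the 17 peaks (points) with 95% exact Poisson intervals (lines), numbered from low to high coordinate within a gene. The dashed line marks the median of 11 tags over all peaks. The third Fstl1 peak has 35 tags, the second Tgfb2 peak 26 and the fifth Fst peak 24, while the Mstn peak has 8.

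Fstl1 had 4 peaks, all above the median score, in a gene of 59462 bp at chromosome 16, 37777055 to 37836516 (plus strand). The main one lay inside the gene, centred 12.6 kb downstream of the start (37788372 to 37790976). It was 2605 bp wide, the fifth widest of the 17539 peaks, against a median width of 745 bp. Its score of 289 ranked 426 and rested on 35 tags (24.4 to 48.7), where the background rate gives 2.20. By tag number only 0.652% of peaks had as many. Spread over its width this was 13.4 tags per kb, less than the 51.5 of the fifth Fst peak. Upstream, peaks at 48.0 kb (37728434 to 37729619) and 34.5 kb (37742382 to 37742754) scored 175 on 19 tags (11.4 to 29.7) and 138 on 13 tags (6.92 to 22.2). Beyond the far end, 8.93 kb away, a peak (37844850 to 37846040) scored 149 on 17 tags (9.90 to 27.2). It covers most of the Gm41452 promoter shown above and was nearer to the protein coding gene Gm36028, at 5.46 kb. A further upstream peak (score 147) was centred 52.0 kb from the gene, outside the window.

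Nog, the gene of the BMP antagonist noggin, had 2 peaks on its lower-coordinate side. It is the shortest of the 10 genes, at chromosome 11, 89300638 to 89302559 (1922 bp), with no other protein coding gene in its window. The nearer peak, 2.81 kb away (89297246 to 89298405), scored 103 on 13 tags (6.92 to 22.2). The other, 9.71 kb away (89290584 to 89291279), scored 90.9 on 10 tags (4.80 to 18.4). Both lay near the medians of the list, 99.3 for score and 11 for tags, and their intervals overlap. They were 6.89 kb apart.

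The remaining antagonists had none within 50 kb. Fstl3, which binds activins and myostatin like follistatin, lies at chromosome 10, 79777274 to 79782630, among 7 other protein coding genes in its window. Its nearest peaks were 67.7 kb away inside Bsg (score 94.3) and 71.4 kb away at Ptbp1, the gene of a splicing regulator (score 146, 1708 bp wide). Chromosome 10 held 12.8 peaks per Mb. Grem1, the gene of the BMP antagonist gremlin, lies at chromosome 2, 113748675 to 113758648. Its nearest peak was 90.3 kb away, 0.331 kb from Arhgap11a, with a score of 92.7.

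**Figure D4:**
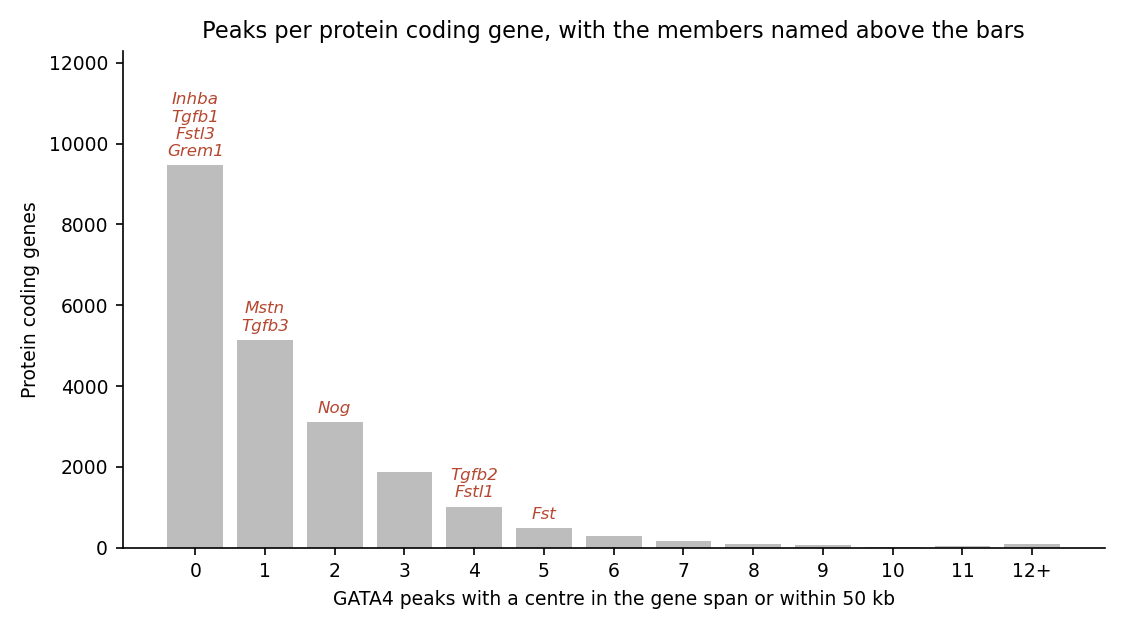
Number of protein coding genes (vertical axis) by the number of GATA4 peaks in the gene span or within 50 kb (horizontal axis, 12 or more pooled), with the 10 members named above their bars. Inhba, Tgfb1, Fstl3 and Grem1 stand over the bar for 0 peaks, and Fst, with 5, stands where 5.75% of genes have as many or more.

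The number of members with a peak changed with the window. Within 10 kb, 5 of the 10 had a peak (Mstn, Tgfb2, Fst, Fstl1 and Nog), against 33.3% of protein coding genes, and within 1 kb 2 did (Tgfb2 and Fstl1), against 24.6%. Within 100 kb all 10 did, against 69.9%. When any base of a peak in the window was enough, Tgfb1 entered with 1 peak and Tgfb3 gained one, and 7 members had a peak, against 57.0%. When a peak counted only for its nearest protein coding gene, 5 members had one, against 30.8%, and Tgfb3 was lost. Among peaks above the median score 5 members had one, against 36.8%, and Mstn was lost.

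Receptors and SMAD proteins of the pathway had peaks at a larger share of genes than other secreted antagonists. Over 85 further pathway genes, 54, or 63.5%, had a peak within 50 kb, against 56.8% of all protein coding genes. None shared a peak with a member. Of 14 receptor genes 11, or 78.6%, had one. The highest scores were at the TGF-beta receptors Tgfbr1 (248, inside the gene) and Tgfbr2 (167, 49.1 kb away). Amhr2 (156, 29.4 kb away) and the BMP receptor gene Bmpr1a (138, inside the gene) came next. Acvr1b and Acvrl1 share 1 peak, which lies inside Acvrl1. It is the only peak of Acvrl1, while Acvr1b had 2. Acvr1c, Bmpr2 and Tgfbr3 had none. Of the type II receptors of myostatin, Acvr2a had 1 peak (66.9, inside the gene) and Acvr2b had 3, the highest scoring 66.8 at 41.7 kb. Of the 8 SMAD genes 7, or 87.5%, had one, and Smad4, the common partner, had none. Smad3, which carries TGF-beta and myostatin signals, had 17 peaks with a best score of 300 (3.72 kb away). The inhibitory Smad6 had 8 (248, 11.1 kb away), and the BMP branch genes Smad1 and Smad5 had 4 and 1 (197 and 182). Of 21887 protein coding genes, 93 had 12 or more peaks, Smad3 among them. Peak counts per gene were not adjusted for gene length, and a longer gene has a wider window.

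Of 20 other ligand genes 12, or 60%, had a peak, led by Bmp5 (score 311, inside the gene). Next came Gdf11, a close relative of Mstn (185, 39.8 kb away). Lefty1 and Lefty2 share a peak of 182 (20.9 and 15.0 kb away). The 60% rests on the wide window: 5 of the 20 had a peak within 10 kb (25%, against 33.3% of all protein coding genes), 2 within 1 kb (10%, against 24.6%), and 4 when each peak went to its nearest gene alone (20%, against 30.8%). Of 14 genes for latency and activation 9, or 64.3%, had one, against 56.8% of all protein coding genes. They were led by Itgb6, the integrin subunit that helps release TGF-beta (395, inside the gene), and the convertase gene Furin (299, 13.7 kb away). The latent TGF-beta binding protein genes Ltbp2 (230, inside the gene) and Ltbp1 (182, 2.10 kb away, with 11 peaks) came next. Of 17 other secreted antagonists 6, or 35.3%, had one, against 56.8% of all protein coding genes. Among them were Bmper (229, inside the gene), Cer1 (203, 10.5 kb away) and Wfikkn2, whose product binds myostatin (153, 5.45 kb away). Of 12 feedback and target genes 9, or 75%, had one, against the same 56.8%. They were led by Tgif1 (335, 49.6 kb away) and Ccn2, a matrix gene induced by TGF-beta (297, 5.82 kb away). Smurf1 (207, inside the gene) and Id2 (182, 14.5 kb away) came next. Ski, Skil and Tgfbi had none. These lists are small, and no difference between them was tested. The receptor count was 6 of 14 (42.9%) within 10 kb, within 1 kb and with the nearest gene, above those same shares of all genes. The other secreted antagonists had 2 of 17 within 1 kb (11.8%, against 24.6%) and 4 within 10 kb (23.5%, against 33.3%). Within 100 kb they had 11 (64.7%, against 69.9%), and with the nearest gene 5 (29.4%, against 30.8%). The feedback and target genes had 5 of 12 within 1 kb (41.7%, against 24.6%).

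**Figure D5:**
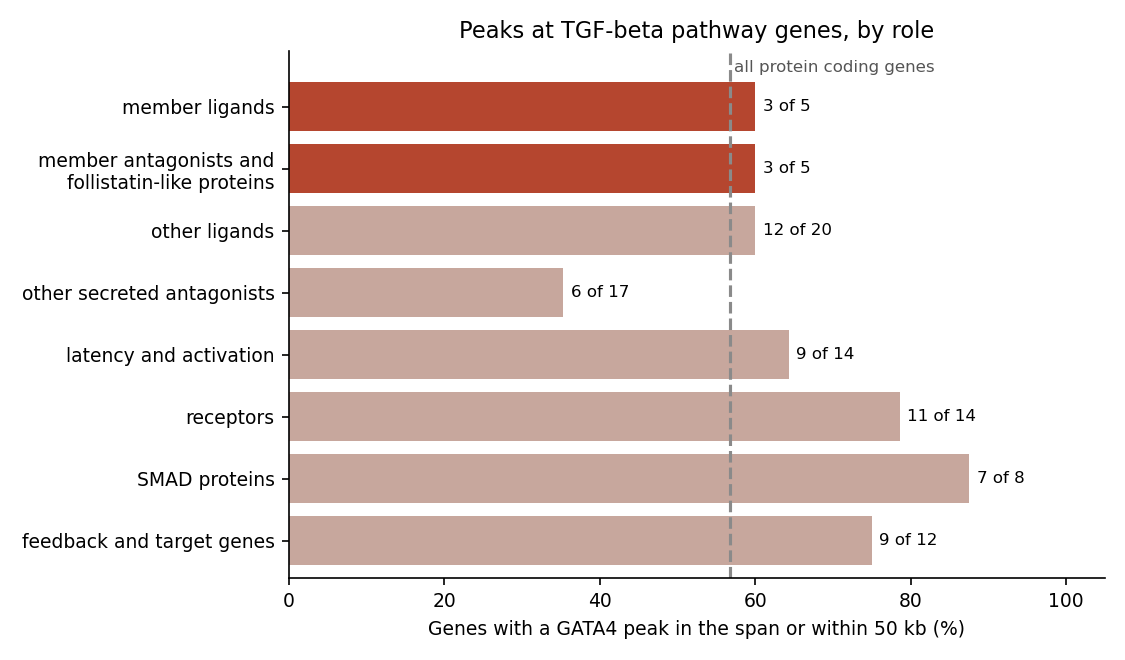
Share of genes in percent with a GATA4 peak in the span or within 50 kb, for the 2 roles of the members (dark bars) and 6 lists of other pathway genes (pale bars), with the number of genes beside each bar. The dashed line marks the 56.8% of all protein coding genes. Bars run from 35.3% for other secreted antagonists to 87.5% for SMAD proteins.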

How the data were processed

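CASAVA 1.8, Bowtie and build GRCm38 (mm10) are named in the submitters' processing notes, and per the file headers peaks were called with MACS in Galaxy. The authors deposited 1 peak list with a MACS score per peak. The MACS version, threshold, duplicate handling and use of the IgG library are not known from the sources used here, and IgG reads were not analysed here. For 99.7% of peaks the score matched that from 1 background rate for the genome, so no local background is visible in those scores. Per the labels' protocols, chromatin was fixed with 1% formaldehyde, sheared to between 200 and 500 bp and sequenced as paired reads of 150 bp.

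Starts were converted to 1-based positions. Genes, all 10 members matched by symbol, and promoters came from RefSeq tables of GRCm38.p6. Peaks were assigned by centre with Python 3.11.15 and pandas 2.3.3, after tests on simulated peaks. Tag numbers were read off from scores after these had been seen. The members and pathway lists were chosen with earlier results of these data known. Named were all members and their peaks, and up to 4 genes per list by highest score, with every gene without a peak where these were 4 or fewer; 1 gene that this rule names is not reported here. Acvr2a, Acvr2b, Acvr1b and Acvrl1 were named beyond that rule, after their values were seen. Alternatives were windows of 1, 10 and 100 kb, peaks above the median score, any overlap, and the nearest gene.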

Additional observations from a re-analysis of the deposited data

How the results depend on the processing

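The number of members with a peak, 6 within 50 kb, was 2 within 1 kb and 10 within 100 kb, and 5 to 7 under the other alternatives. The number of assigned peaks, 17, was 8 within 10 kb, 2 within 1 kb and 38 within 100 kb, and 13 to 19 otherwise. The number of the 85 other pathway genes with a peak, 54, was 33 within 10 kb, 27 within 1 kb and 35 with the nearest gene, and 44 to 70 otherwise. In the same order, the share of all protein coding genes, 56.8%, was 33.3%, 24.6% and 30.8%, and 36.8% to 69.9% otherwise. These counts and shares differ by construction, since each setting admits fewer or more peaks. The median score of the assigned peaks, 138, lay between 96.9 (10 kb) and 186 (1 kb, 2 peaks), within 1.5 times. Of 96 recomputed values of single genes and lists, 67 stayed within 1.5 times and 29 did not. No paired analysis was possible because there was 1 GATA4 library and 1 IgG library. Depth limits the ranking of peaks, since the median peak rested on 11 tags, and no background was measured in the IgG library here.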
